A study of Mus musculus with 2 samples.

Results

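Fasciculata-type cortical cells are described here, the adrenal cells that carried the message for Cyp11b1, the last enzyme of corticosterone synthesis, and little of the inner-zone message Cyp2f2. They came from adrenal glands of female C57BL/6J mice with the genotype SF1-Cre+;Znrf3Fx/Fx. In these mice Cre recombinase under SF1 control, active in steroidogenic cells, acts on floxed Znrf3, a gene whose product removes Wnt receptors from the cell surface. One library was made at 9 weeks of age from 3 pooled adrenals and 1 at 6 weeks from 2 pooled adrenals, and the labels do not say from how many mice. Both libraries carry the same genotype, so no comparison with unaltered adrenals was made here. Dissociated cells were sorted as viable, DNA-dye-positive and DAPI-negative before droplet capture with 3′ chemistry. Each captured molecule carries a unique molecular identifier (UMI), and a share below is a share of sorted barcodes and not of the gland.

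A barcode was kept with at least 500 detected genes and at most 25% mitochondrial UMIs. It was cortical when Hsd3b1, Cyp21a1, Star and Cyp11a1 together made up at least 0.5% of its UMIs and Ptprc, the pan-leukocyte antigen, was at 0. Fasciculata-type cells were the cortical barcodes with at least 10 Cyp11b1 UMIs per 10000 and fewer than 5 Cyp2f2 UMIs. Members were thus chosen by measured levels of these genes, which are described and not tested. By this rule 767 cells at 9 weeks and 1933 at 6 weeks were members, 2700 of 19135 kept barcodes in all. The other cortical barcodes formed a Cyp2f2-high group, with at least 5 Cyp2f2 UMIs, of 157 at 9 weeks and 1563 at 6 weeks, and a Cyp11b1-low group of 1145 and 992. Members had a median of 17055 UMIs and 4443 detected genes at 9 weeks, and of 16041 UMIs and 4200 genes at 6 weeks.

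The zona fasciculata is the middle and widest zone of the adrenal cortex. Its cells take up or make cholesterol and, under adrenocorticotropic hormone (ACTH) acting through the receptor Mc2r, turn it into corticosterone, the main glucocorticoid of the mouse. Cholesterol enters the mitochondrion with Star, is cut by Cyp11a1, and its products pass through Hsd3b1, Cyp21a1 and Cyp11b1. The outer zona glomerulosa makes aldosterone with Cyp11b2, while the X-zone at the inner border, a transient layer of the mouse cortex, is marked by Akr1c18 and Pik3c2g.

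The 9-week matrix held 10812 barcodes and 99728879 UMIs, and the 6-week matrix 8880 barcodes and 97001752 UMIs. With 1 library per age there is no replicate, so no p-value or test is given for any difference. Levels are UMIs of a gene summed over cells and scaled to the cells' total (CPM), with exact Poisson 95% intervals, and shares have exact Clopper-Pearson 95% intervals. Both kinds of interval cover counting error only, and the spread between mice is unknown. The libraries shared 29 barcode sequences, which occurred in 2 members at 9 weeks and 12 at 6 weeks. Znrf3, the targeted gene, stood at 43.5 CPM at 9 weeks and 44.6 CPM at 6 weeks in members, but reads from the 3′ end do not check a deletion elsewhere in the gene.

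Members made up 37.1% of cortical barcodes at 9 weeks (95% interval 35.0 to 39.2) and 43.1% at 6 weeks (41.6 to 44.5). They were 7.29% of all kept barcodes at 9 weeks and 22.5% at 6 weeks. The 9-week library held more leukocyte barcodes, 5590 against 1700. The Cyp2f2-high group was 7.59% of cortical barcodes at 9 weeks and 34.8% at 6 weeks, and the Cyp11b1-low group 55.3% and 22.1%. The member share of cortical barcodes was thus lower at 9 weeks, but with cortical genes required at 1% of UMIs in place of 0.5% it was 46.6% at 9 weeks and 46.8% at 6 weeks.

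**Figure D1:**
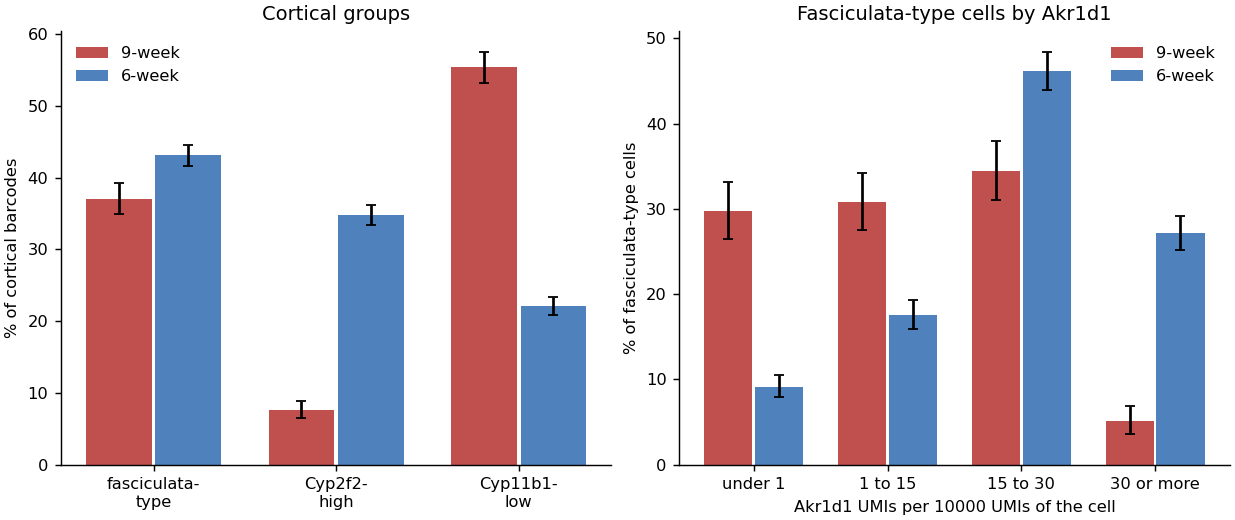
Shares of cortical barcodes in the 3 cortical groups (left) and of fasciculata-type cells in 4 ranges of Akr1d1 UMIs per 10000 (right), at 9 and 6 weeks, in percent of barcodes with exact 95% binomial intervals for counting error. Fasciculata-type cells were 37.1% of cortical barcodes at 9 weeks and 43.1% at 6 weeks, and those with under 1 Akr1d1 UMI per 10000 were 29.7% and 9.16% of the members.

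The Cyp11b1 threshold falls on a slope and not in a gap. Between 10 and 12 Cyp11b1 UMIs per 10000 lay 37 members at 9 weeks and 54 at 6 weeks, and just outside, between 8 and 10, lay 51 and 67 barcodes. On the other border, 6 members at 9 weeks and 27 at 6 weeks had 4 Cyp2f2 UMIs, and 7 and 37 barcodes outside had 5. Of the Cyp2f2-high group, 131 barcodes at 9 weeks and 1417 at 6 weeks had 10 or more Cyp11b1 UMIs per 10000, so most of that group differs from the members by Cyp2f2 and not by the Cyp11b1 threshold.

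The markers of the zone were present. Hsd3b1 was at 9082 CPM at 9 weeks and 9977 CPM at 6 weeks, Cyp21a1 at 6343 and 8551 CPM, Cyp11b1 at 3259.8 and 3378 CPM, and Mgarp, a mitochondrial protein of steroidogenic cells, at 3472 and 2759 CPM. Hsd3b1, Cyp21a1 and Cyp11b1 were part of the rule, so their levels only describe the choice. The rule did not use Akr1d1, a steroid 5-beta-reductase, which stood at 1292 CPM in members at 9 weeks against 23.1 CPM in the Cyp11b1-low group, and at 2306 CPM at 6 weeks against 204 CPM. In the Cyp2f2-high group it was higher still, at 2498 CPM at 9 weeks and 2826 CPM at 6 weeks. Cyp11b2, aldosterone synthase, was at 2.89 and 2.20 CPM in members, and Cyp17a1, which mouse adrenals largely lack, had 0 UMIs at both ages, which allows up to 3 UMIs. The X-zone marker Akr1c18 was at 0.625 and 0.446 CPM. Cyp11b1 and Cyp11b2 are close relatives, as are Hsd3b1 and Hsd3b6, and Cyp21a1 has a pseudogene, so these genes can share reads.

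Genes higher in members than in both other cortical groups were named by a rule of size and describe the choice, with nothing tested. Over the Cyp2f2-high group at both ages, 100 of 7991 genes counted (1.25%) were at least 1.5-fold higher in members and 44 (0.551%) at least 1.5-fold lower. Over the Cyp11b1-low group the counts were 903 of 8625 (10.5%) and 952 (11%). Srd5a2, a steroid 5-alpha-reductase, was at 258 CPM in members against 127 CPM in Cyp2f2-high and 4.98 CPM in Cyp11b1-low barcodes at 9 weeks. At 6 weeks it was at 409 CPM in members against 302 and 35.0 CPM. The members thus had the highest level at both ages. Tsc22d1, a leucine zipper protein, was at 1036 CPM in members against 646 and 591 CPM at 9 weeks, and at 6 weeks again highest in members, at 624 CPM. Ccnd3, a D-type cyclin, was at 449.6 CPM against 298 and 251 CPM at 9 weeks, and at 506 CPM against 407 and 267 CPM at 6 weeks. Mxra7, Akr1b8, Cdk5rap2, Serpinb6b, Klhdc8a, Fam129a and Dlg2 were the other genes of the 10 named by this rule. None of the 10 was at least 1.5-fold above the Cyp2f2-high group at both ages, so they are not among the 100 genes above.

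The steepest differences from the Cyp11b1-low group were mostly shared with the Cyp2f2-high group. Mgat4c, a glycosyltransferase gene, was at 745 CPM in members, 780.1 CPM in Cyp2f2-high and 3.27 CPM in Cyp11b1-low barcodes at 9 weeks, and at 1030.2, 999 and 46.7 CPM in that order at 6 weeks. Abcb1b, a multidrug efflux pump, was at 686, 789 and 17.2 CPM at 9 weeks and at 601, 623 and 46.2 CPM at 6 weeks. Oxtr, the oxytocin receptor, was at 142, 244 and 3.27 CPM at 9 weeks and at 233, 278 and 16.3 CPM at 6 weeks. All of these were far lower in the Cyp11b1-low group than in members and close to the members' level or above it in the Cyp2f2-high group.

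Between the ages, Hsd3b1 and Cyp11b1 lay close together, while the first enzyme of the path and the steroid reductases differed. Over all 8325 genes counted in members, 210 (2.52%) were at least 1.5-fold higher and 106 (1.27%) at least 1.5-fold lower at 9 weeks, with a median log2 ratio of 0.05. Trimmed mean scaling gives 165 higher and 147 lower, so that 52.9% of the calls were higher instead of 66.5%. Ratios are of CPM after adding 5 CPM, which understates differences of low genes. Of 14 counted steroidogenic genes, Cyp11a1 and Srd5a1 were at least 1.5-fold higher at 9 weeks and Akr1d1 and Srd5a2 at least 1.5-fold lower. Cyp11a1 was part of the rule through the sum of cortical genes. The median log2 ratio of the list was -0.08. Srd5a1 had a log2 ratio of 0.50 instead of 0.78, under 1.5-fold, when the 9-week members were weighted to the 6-week spread of Akr1d1. Of the 12 genes of the fasciculata list, Akr1b7 was higher and again Akr1d1 and Srd5a2 lower, with a median of -0.09.

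Cyp11a1 (chr9:58006411-58027023, forward strand), which makes pregnenolone from cholesterol, stood at 2136 CPM (2110.3 to 2161) in members at 9 weeks and 1088 CPM (1077 to 1100.1) at 6 weeks, giving a log2 ratio of 0.97. Per cell, its median was 18.8 UMIs per 10000 at 9 weeks (10th to 90th percentile 3.94 to 48.9) and 5.98 at 6 weeks (0 to 29.0). The cells of the ages overlapped widely. Star, which brings cholesterol to Cyp11a1, was at 1711 and 2151 CPM, a log2 ratio of -0.33. Cyp21a1 had a log2 ratio of -0.43, Hsd3b1 of -0.14 and Cyp11b1 (chr15:74834125-74841643, reverse strand) of -0.05, the last bounded from below by the rule. Cyp11a1, Star, Cyp21a1 and Hsd3b1 also entered the rule, as a sum, so their levels are described and not tested. The electron carriers of the mitochondrial P450 enzymes differed little, with Fdx1 at 2226 and 2164 CPM and Fdxr at 914 and 846 CPM.

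Akr1d1 (chr6:37530173-37568815, forward strand) had a log2 ratio of -0.83. Its median per cell was 11.8 UMIs per 10000 at 9 weeks (0 to 25.8) and 22.9 at 6 weeks (3.14 to 38.7). Srd5a2 had a log2 ratio of -0.65. Akr1b7, an aldose reductase-like enzyme that detoxifies by-products of steroid synthesis and responds to ACTH, stood at 359 CPM (349 to 369) in members at 9 weeks and 163 CPM (159 to 168) at 6 weeks, giving a log2 ratio of 1.11. With UMIs thinned to 5000 per cell, 60.2% of 731 members at 9 weeks and 32.9% of 1884 members at 6 weeks had an Akr1b7 UMI, and without thinning 82.3% and 51.0%. In thinned leukocytes, which should lack it, the shares were 4.60% and 2.64%, where the median depth of leukocyte barcodes was 7478 and 5882.5 UMIs.

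**Figure D2:**
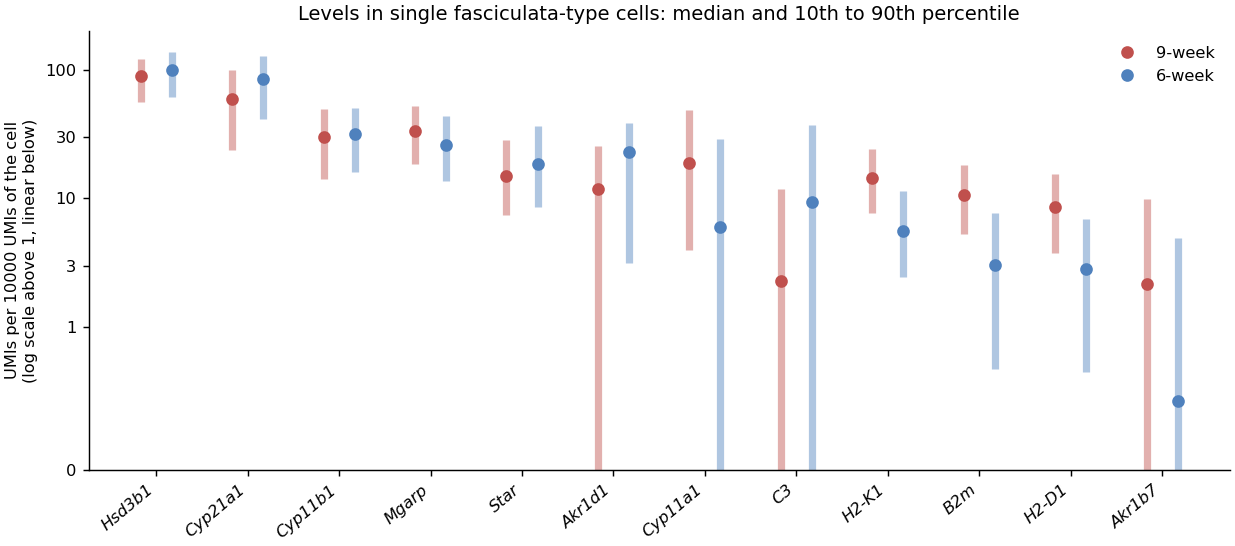
Levels of 12 genes in single fasciculata-type cells at 9 weeks (767 cells) and 6 weeks (1933 cells), as UMIs per 10000 UMIs of the cell on an axis that is logarithmic above 1 and linear below. Points are medians and bars run from the 10th to the 90th percentile of cells. Cyp11b1 has close medians of 30.3 at 9 weeks and 31.5 at 6 weeks, while B2m has 10.7 and 3.04.

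The promoter windows of Akr1b7 and Akr1d1, which differed in opposite directions, are shown because the promoter of mouse Akr1b7 is a known target of SF1, the protein of Nr5a1. They are RefSeq sequences of GRCm38.p6, 250 bases before to 50 after the start, on the forward strand at chr6:34412112-34412411 for Akr1b7 and chr6:37529923-37530222 for Akr1d1. Capitals mark AAGGTCA, a sequence bound by SF1, read on either strand.
Akr1b7: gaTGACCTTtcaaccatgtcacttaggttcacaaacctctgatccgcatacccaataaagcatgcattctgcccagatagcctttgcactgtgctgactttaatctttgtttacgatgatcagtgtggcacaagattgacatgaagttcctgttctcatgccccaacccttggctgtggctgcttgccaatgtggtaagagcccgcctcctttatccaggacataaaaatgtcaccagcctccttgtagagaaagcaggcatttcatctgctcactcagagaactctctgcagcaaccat
Akr1d1: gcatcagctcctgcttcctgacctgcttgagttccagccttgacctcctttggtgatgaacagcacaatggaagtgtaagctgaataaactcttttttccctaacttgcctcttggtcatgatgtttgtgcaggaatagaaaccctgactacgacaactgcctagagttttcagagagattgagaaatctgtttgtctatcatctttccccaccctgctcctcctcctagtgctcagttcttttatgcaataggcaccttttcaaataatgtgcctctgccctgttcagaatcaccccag
Akr1b7 held 1 match, on the reverse strand at the far end of the window, and Akr1d1 held none in this window. The motif was found in 4.72% of 32851 promoters of this length. Of the 12 genes of the fasciculata list 6 were matched in the table, and 1 of them held it.

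Of 18 counted genes of the ACTH pathway 2 were at least 1.5-fold higher at 9 weeks and 1 lower. Among all genes 2.52% were higher and 1.27% lower. The higher ones were the nuclear receptors Nr4a1 and Nr4a3, and the lower one was Nr0b1, a repressor of SF1. The median of the 18 genes was 0.02 on the log2 scale. Nr4a1 was at 23.1 CPM at 9 weeks and 8.54 CPM at 6 weeks, and Nr0b1 at 67.6 and 107 CPM. The receptor Mc2r was at 223 and 167 CPM, and its accessory protein Mrap at 512 and 568 CPM. Further down the path, the G protein subunit Gnas was at 1229.7 and 1224 CPM and the kinase subunit Prkar1a at 378 and 368 CPM. Nr5a1 was at 249.9 CPM at 9 weeks and 311 CPM at 6 weeks. Of 10 counted cortical regulators 1, again Nr0b1, passed 1.5-fold. When the 9-week members were weighted to the 6-week spread of Akr1d1, 0 of the ACTH genes were higher and 0 lower, and 0 of the cortical regulators were lower. The log2 ratio was then 0.51 for Nr4a1, -0.37 instead of 0.59 for Nr4a3 and -0.37 for Nr0b1.

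Genes of cholesterol synthesis were lower at 9 weeks, most by less than 1.5-fold. The log2 ratio was below 0 for all 21 counted genes, and 5 were at least 1.5-fold lower, beside 1.27% of all genes. The median of the 21 was -0.42, beside 0.05 over all genes. Fdps, which makes farnesyl diphosphate, was at 140.5 CPM at 9 weeks and 228 CPM at 6 weeks. Idi1, the isopentenyl isomerase before it, was at 83.0 and 139 CPM. Hsd17b7, Mvd and Sqle also passed, while Hmgcs1, which makes hydroxymethylglutaryl-CoA, at 246 and 346 CPM did not. Of 16 counted genes of cholesterol uptake, storage and transport 0 passed 1.5-fold in either direction, and their median was -0.00. Soat1, which esterifies cholesterol for storage, was at 823 and 725 CPM, and the lipoprotein receptor Scarb1 at 119 and 90.6 CPM. In the Cyp2f2-high group 1 of 21 genes of cholesterol synthesis was lower at 9 weeks, with a median of -0.04 and 0.908% of all its genes lower, and in the Cyp11b1-low group 9 of 18, with a median of -0.51 and 1.3% of all its genes lower. The differences between these groups were not tested.

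Members varied widely in Akr1d1, which the rule did not use. Ranges of Akr1d1 UMIs per 10000 were chosen after its levels were seen, and they are ranges and not cell types. Cells with under 1 were 29.7% of members at 9 weeks (26.5 to 33.1) and 9.16% at 6 weeks (7.91 to 10.5). Cells with 1 to 15 made up 30.8% and 17.6%, those with 15 to 30 made up 34.4% and 46.1%, and those with 30 or more made up 5.08% and 27.1%. Akr1d1-poor cells were thus a larger part of the members at 9 weeks. Median depth was 14494 UMIs in the lowest range and 18020 in the highest at 9 weeks, and 13130 and 16832 at 6 weeks.

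The Akr1d1-poor members carried genes of the outer cortex. In the lowest range, Wnt4, a ligand of the outer cortex, was at 1131 CPM at 9 weeks and 1329.9 CPM at 6 weeks, and in the highest range at 270.0 and 283 CPM. Dab2, an adaptor protein of the glomerulosa, was at 629 and 694 CPM in the lowest range and at 33.2 and 46.7 CPM in the highest. Kcnk3, a background potassium channel, was at 1394 and 1514 CPM in the lowest and 351 and 281 CPM in the highest. These cells still had the message of the rule, with Cyp11b1 at 2240.1 and 2321 CPM in the lowest range. Cyp11a1 was at 4129 CPM at 9 weeks and 4241 CPM at 6 weeks in the lowest range and at 684 and 508 CPM in the highest, and Akr1b7 at 760.0 and 663 CPM and at 169 and 78.0 CPM. The complement gene C3 (chr17:57203970-57228136, reverse strand) ran the other way, with 4.05 and 20.6 CPM in the lowest range and 1253 and 2226 CPM in the highest.

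**Figure D3:**
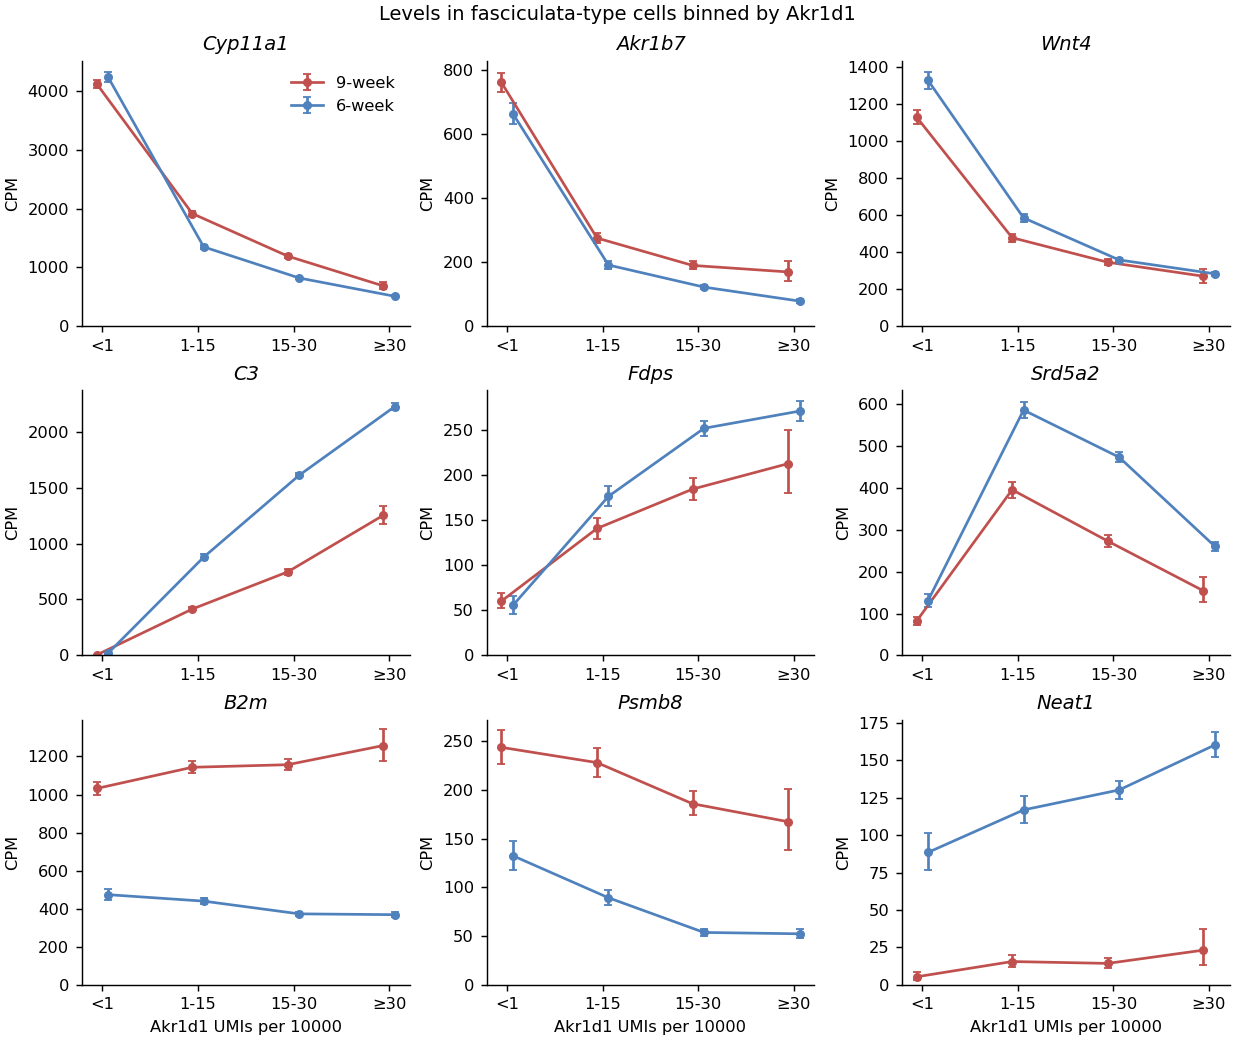
Levels of 9 genes in fasciculata-type cells in 4 ranges of Akr1d1 UMIs per 10000, at 9 and 6 weeks, in CPM summed over the cells of a range, with exact Poisson 95% intervals. Cyp11a1 and Wnt4 are highest where Akr1d1 is lowest at both ages, while B2m and Psmb8 lie higher at 9 weeks, and Neat1 lower, in all 4 ranges.

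Within these ranges some differences between the ages were smaller than over all members. Cyp11a1 had log2 ratios of -0.04, 0.51, 0.54 and 0.43 along the ranges, and Akr1b7 of 0.20, 0.52, 0.62 and 1.07. With the 9-week cells weighted to the 6-week shares of the 4 ranges, the log2 ratio of Cyp11a1 was 0.36 instead of 0.97 and that of Akr1b7 0.55 instead of 1.11. Neither then passed 1.5-fold. The weighting also brought Akr1d1, itself called lower at 9 weeks, from a log2 ratio of -0.83 to -0.09. Whether a range of Akr1d1 holds like cells at both ages was not tested. Under this weighting 69 genes were higher and 67 lower, of which 61 and 42 were also called without it. The glomerulosa list had 2 of 11 counted genes higher at 9 weeks, Dab2 and Kcnk3, and 1 lower, Vsnl1, with a median of 0.42. Under the weighting it had 0 higher, 3 lower and a median of -0.29. For cholesterol synthesis the weighted median was -0.25, with 1 gene lower. Srd5a2 kept its difference, with a weighted log2 ratio of -0.71.

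Across single cells thinned to 5000 UMIs, Akr1d1 went with C3, with Spearman's rho of 0.65 over 731 cells at 9 weeks and 0.44 over 1884 cells at 6 weeks. It went against Cyp11a1, with rho of -0.66 and -0.42, and rho with B2m was 0.06 and -0.04. All cells of an age share 1 library, so these values only describe it. Ranges of Cyp11b1, the gene of the rule, were more alike between the ages. The range from 10 to 20 UMIs per 10000 held 24.0% of members at 9 weeks and 17.8% at 6 weeks, that from 20 to 40 held 49.5% and 53.5%, and that from 40 to 80 held 25.8% and 28.5%. Akr1d1 was at 508 CPM at 9 weeks and 1819 CPM at 6 weeks in the first of these ranges, and at 1744 and 2596 CPM in the last. Weighting the 9-week cells to the 6-week shares of the Cyp11b1 ranges left the log2 ratio of Cyp11a1 at 0.91 and that of Akr1b7 at 1.07.

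Some of the 12 genes named for higher levels at 9 weeks, among them Cdkn1c and Htra1, had their highest levels in Akr1d1-poor members. Cdkn1c, a cell cycle inhibitor, was at 406 CPM at 9 weeks and 158 CPM at 6 weeks, and at 798 and 758 CPM in the lowest and 44.8 and 43.4 CPM in the highest Akr1d1 range. Htra1, a secreted protease, was at 54.6 and 15.4 CPM, and in the lowest range at 207 and 137 CPM. Tpm2, a tropomyosin, was at 56.8 and 13.2 CPM. Kitl, the ligand of the Kit receptor, was at 92.0 and 32.2 CPM, Id1, an inhibitor of DNA binding, at 161 and 65.7 CPM, and Peg10, an imprinted gene, at 166 and 68.4 CPM. Under the Akr1d1 weighting Htra1, Cdkn1c, Kitl, Id1, Peg10 and Akr1b7 no longer passed 1.5-fold, with log2 ratios from 0.10 for Htra1 to 0.56 for Kitl. Tpm2 at 0.85 and Iqgap2, a scaffold protein, at 0.82 still did. Of 7 counted Wnt targets Lef1 and Ccnd1 were higher, with a median of 0.36, and under the weighting 0 were higher, 1 lower and the median was -0.06. Lef1 then had a log2 ratio of -0.30 instead of 0.60, and Ccnd1 of -0.76 instead of 0.64. Trimmed mean scaling left 0 Wnt targets higher. Axin2, the common feedback target, was at 32.0 CPM at 9 weeks and 23.5 CPM at 6 weeks.

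Antigen presentation by MHC class I held more of the higher genes. This pathway shows fragments of cell proteins to T cells, with B2m as the light chain, H2 genes as heavy chains, and Psmb8 and Psmb9 as subunits of the immunoproteasome that cuts the fragments. Of 19 counted genes 10 were at least 1.5-fold higher at 9 weeks and 0 lower, with a median log2 ratio of 0.78, beside 2.52% of all genes higher and a median of 0.05. B2m (chr2:122147686-122153083, forward strand) was at 1127 CPM (1108 to 1145) in members at 9 weeks and 391 CPM (384 to 398) at 6 weeks. Without the added 5 CPM, the 9-week level was 2.88 times the 6-week one. Dividing opposite ends of these intervals gave 2.78 to 2.98, which is wider than a 95% interval of the ratio. H2-K1 was at 1509 and 646 CPM, H2-D1 at 905 and 350.0 CPM, and H2-T23 at 124 and 64.0 CPM. Both immunoproteasome subunits were also higher, with Psmb8 at 213 CPM at 9 weeks and 65.7 CPM at 6 weeks and Psmb9 at 134 and 54.4 CPM. H2-Q7, at 67.2 and 13.8 CPM, had the highest ratio in the list, but H2-Q4, H2-Q6 and H2-Q7 are close copies among which reads can be split. The peptide transporter genes Tap1, at 29.1 and 19.9 CPM, and Tap2, at 43.7 and 36.7 CPM, did not pass, nor did the chaperone Calr, at 386 and 439 CPM.

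The difference in B2m was seen across the cells and not in a few. The 10th percentile of cells at 9 weeks, 5.29 UMIs per 10000, lay above the 6-week median of 3.04, and the 90th percentile at 6 weeks was 7.68, where the 9-week median was 10.7. After thinning, 58.8% of members at 9 weeks (55.2 to 62.4) and 23.7% at 6 weeks (21.8 to 25.7) had a Psmb8 UMI, and without thinning 88.1% and 50.1%. Leukocytes, which express Psmb8, had thinned shares of 95.3% and 95.4%, and without thinning 90.4% and 86.1%. The difference was present in each range of Akr1d1, where the log2 ratio of B2m was 1.12, 1.37, 1.62 and 1.76. At least 1.5-fold higher were 8, 10, 10 and 9 of the 19 class I genes along the ranges, where 1.53%, 1.16%, 1.11% and 4.9% of all genes were. Of the interferon response genes 5 of 27, 9 of 31, 19 of 29 and 6 of 28 were higher, and 0, 2, 0 and 1 lower. Of all genes 2.1%, 1.92%, 0.863% and 3.43% were lower. The highest range held 39 members at 9 weeks, the fewest of the 4. Under the Akr1d1 weighting the log2 ratio was 1.57 for B2m, 1.24 for H2-K1 and 1.48 for Psmb8.

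Interferon response genes had 14 of 28 counted members at least 1.5-fold higher at 9 weeks, 0 lower, and a median of 0.59. Iigp1, an immunity-related GTPase, was at 87.4 CPM at 9 weeks and 32.2 CPM at 6 weeks, Ifit3, an interferon-induced protein, at 47.9 and 18.1 CPM, and Rtp4 at 68.3 and 30.5 CPM. Ifi27 was the most abundant of the list, at 1078 and 809 CPM, and did not pass. Iigp1 was found in 20.5% of thinned members at 9 weeks and 5.41% at 6 weeks, against 25.8% and 19.0% of thinned leukocytes, and without thinning in 38.7% and 11.3% of members. A single cell held 11.8% of the members' Iigp1 UMIs at 9 weeks and 13.9% at 6 weeks, and 26.4% of those of Ifit3 at 9 weeks. With a pseudocount of 20 CPM 7 of the 28 genes passed 1.5-fold.

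Promoter windows of 3 class I and interferon response genes that carry the motif GAAA, any 2 bases, then GAAA, the core of the interferon-stimulated response element, are shown for that motif. They are RefSeq sequences of GRCm38.p6 in gene orientation, 250 bases before to 50 after the start, at chr2:122147437-122147736 on the forward strand for B2m, chr17:36032652-36032951 on the reverse strand for H2-T23 and chr19:34583279-34583578 on the forward strand for Ifit3. Capitals mark the motif, read on either strand.
B2m: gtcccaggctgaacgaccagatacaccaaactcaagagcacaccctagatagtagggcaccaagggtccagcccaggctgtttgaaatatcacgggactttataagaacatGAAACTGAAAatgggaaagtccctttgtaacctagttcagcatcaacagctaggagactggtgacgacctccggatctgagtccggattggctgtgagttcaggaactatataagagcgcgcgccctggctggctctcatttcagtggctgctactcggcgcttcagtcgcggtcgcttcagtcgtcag
H2-T23: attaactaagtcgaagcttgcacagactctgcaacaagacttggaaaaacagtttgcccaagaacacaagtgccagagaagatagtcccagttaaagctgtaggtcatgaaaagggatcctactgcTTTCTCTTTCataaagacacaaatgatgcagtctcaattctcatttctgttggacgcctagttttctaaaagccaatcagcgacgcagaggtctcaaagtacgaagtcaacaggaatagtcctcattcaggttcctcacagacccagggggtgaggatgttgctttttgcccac
Ifit3: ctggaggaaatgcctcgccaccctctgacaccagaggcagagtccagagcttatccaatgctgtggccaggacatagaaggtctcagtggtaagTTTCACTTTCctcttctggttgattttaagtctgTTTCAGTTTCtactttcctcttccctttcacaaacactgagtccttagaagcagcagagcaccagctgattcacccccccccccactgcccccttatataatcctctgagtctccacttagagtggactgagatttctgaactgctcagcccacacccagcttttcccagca
B2m and H2-T23 held 1 match each and Ifit3 held 2. Among genes matched in the table, 17 of 26 interferon response genes and 5 of 18 class I genes held a match, where 3.44% of 32851 promoters of this length did. Of the class I genes higher at 9 weeks, H2-K1, H2-D1, H2-Q4, H2-Q6, H2-Q7, Psmb8 and Psmb9 held none in their windows. Erap1 and Psme1 held a match but had log2 ratios of 0.21 and 0.12, under 1.5-fold. A match is a run of letters and no measured binding.

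**Figure D4:**
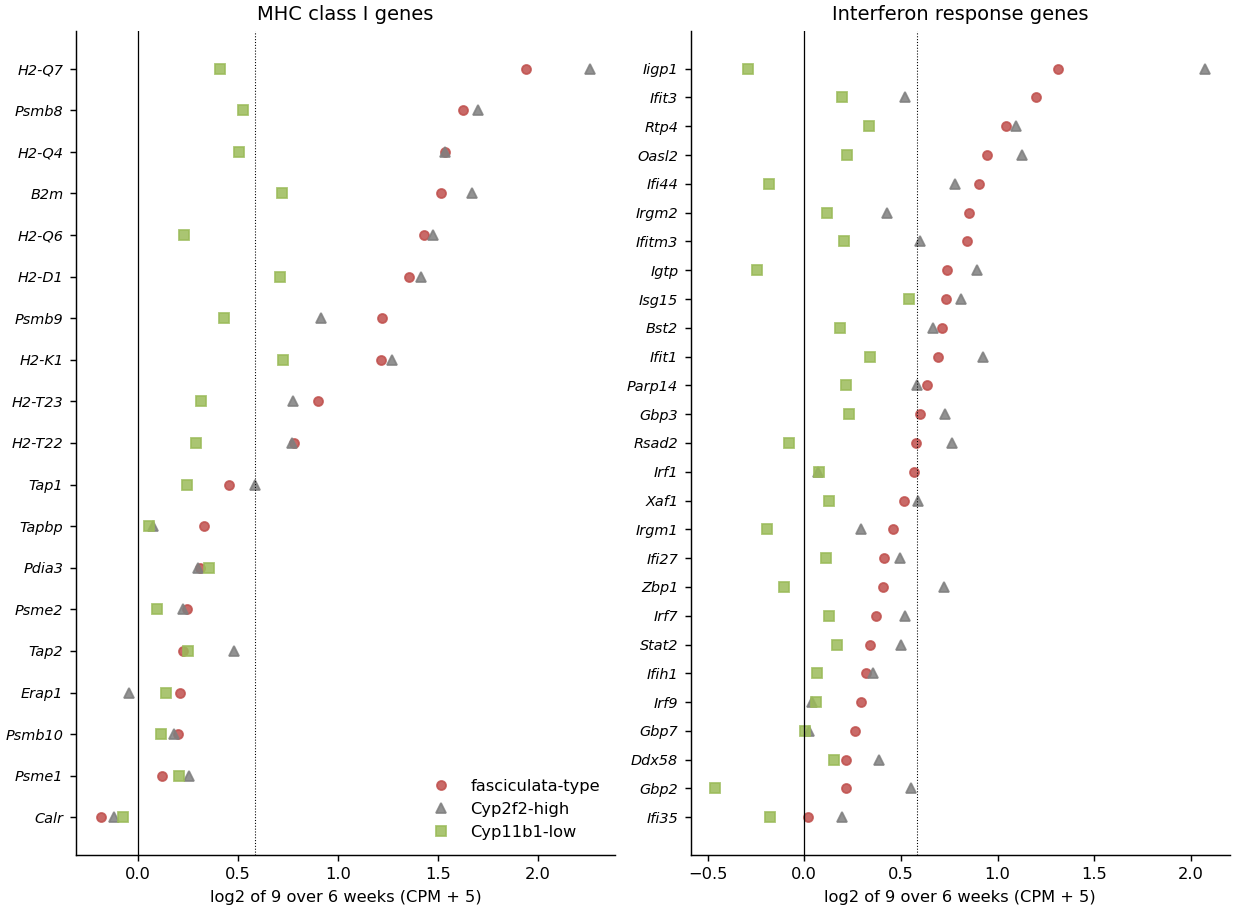
Log2 ratio of 9 over 6 weeks (CPM with 5 CPM added) for the 19 counted MHC class I genes and 27 of the 28 counted interferon response genes in fasciculata-type cells, Cyp2f2-high and Cyp11b1-low barcodes. The dotted line is at 1.5-fold. B2m has a log2 ratio of 1.51 in fasciculata-type cells, 1.67 in Cyp2f2-high and 0.72 in Cyp11b1-low barcodes.

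The same genes were set beside those of the other cortical barcodes of the 2 libraries. In the Cyp2f2-high group 11 of 19 class I genes and 14 of 29 interferon response genes were at least 1.5-fold higher at 9 weeks, with medians of 0.77 and 0.58, where 1.6% of all its genes were. In the Cyp11b1-low group 3 of 19 and 0 of 22 were, with medians of 0.29 and 0.10, where 0.947% of all its genes were. B2m was at 1127 CPM in members at 9 weeks against 1075 CPM in Cyp2f2-high and 670.1 CPM in Cyp11b1-low barcodes, and at 6 weeks at 391 CPM against 334 and 405 CPM. The cortical groups were thus closer together at 6 weeks for B2m. Psmb8 was at 213 CPM in members at 9 weeks against 149.7 and 197 CPM, and at 6 weeks at 65.7 CPM against 42.6 and 136 CPM. The difference between the groups has no test, as there is 1 library per age.

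Messages of leukocytes were also higher in the members at 9 weeks. Of 7 counted genes of the myeloid list 6 were at least 1.5-fold higher, with a median of 0.73. For 12 myeloid genes, without Apoe, Cd74 and Ptprc, the level in members was 0.363% to 0.672% of that in leukocyte barcodes at 9 weeks and 0.167% to 0.286% at 6 weeks. These genes summed to 118 and 57.8 CPM. For B2m the same percentage was 47.7% at 9 weeks and 15.7% at 6 weeks, and for H2-K1 71.4% and 34.1%. Outside the 12, Apoe was at 1.68% and 1.16%. If the members' leukocyte RNA had the profile of the leukocyte barcodes, at the proportion of the highest of the 12 genes, it would hold 15.9 CPM of B2m at 9 weeks and 7.13 CPM at 6 weeks, and the ratio of what was left, 9 over 6 weeks, would be 2.89. Whether that profile applies was not tested. The proportion is no upper bound, as Apoe and, at 9 weeks, the MHC class II gene H2-DMb1 with 0.964% stood higher. RNA of endothelial barcodes, which had B2m at 4553 CPM at 9 weeks and 3656 CPM at 6 weeks, was left out. The source of the B2m difference was thus not tested. Among the 307 members at 9 weeks and 1402 at 6 weeks without UMIs of Tyrobp, Fcer1g, C1qa, C1qb, C1qc and Lyz2, 10 of 19 class I and 12 of 30 interferon response genes were at least 1.5-fold higher, and 0 and 2 lower. Of all 8304 genes counted in these members 207 were higher and 118 lower. Other leukocyte messages remained in them, as 4 of 4 counted MHC class II and 3 of 3 counted neutrophil genes were still higher.

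MHC class II genes, with which leukocytes present antigen, were in the median at a higher percentage of the leukocyte level than the 12 myeloid genes. Over 6 class II genes the median was 0.768% at 9 weeks and 0.267% at 6 weeks, against 0.511% and 0.205% for the myeloid genes. All 4 counted genes, Cd74, H2-Aa, H2-Ab1 and H2-Eb1, were at least 1.5-fold higher at 9 weeks, with a median of 1.44. Cd74 was at 94.0 and 29.6 CPM. With H2-DMa and H2-DMb1 they came to 0.546% to 0.964% of the leukocyte level at 9 weeks and 0.226% to 0.329% at 6 weeks. Neutrophil messages differed more, and both counted genes, S100a8 at 33.6 and 0.860 CPM and S100a9 at 44.5 and 1.94 CPM, were higher. After thinning, 16.1% of members at 9 weeks and 0.318% at 6 weeks had an S100a8 UMI, and without thinning 41.3% and 1.35%. Leukocytes had shares of 29.6% and 1.01% after thinning and of 44.1% and 11.5% without it. At 6 weeks thinning left out 714 leukocytes with under 5000 UMIs and kept 986. At 9 weeks it left out 1697, and 1000 of the deeper leukocytes were drawn at random for all thinned shares. Of 5 counted endothelial genes 0 were higher and 1, Plvap, lower. The lymphoid, stromal and medullary lists had no gene at 10 CPM, with summed levels of 6.56, 1.17 and 3.91 CPM at 9 weeks and 4.24, 1.05 and 3.06 CPM at 6 weeks.

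Among the 12 genes named for lower levels at 9 weeks, Neat1 (chr19:5824708-5845478, reverse strand), a nuclear non-coding RNA that builds paraspeckles, had the lowest log2 ratio. It stood at 12.9 CPM at 9 weeks and 133 CPM at 6 weeks in members, a log2 ratio of -2.95. Its level at 9 weeks was also lower in Cyp2f2-high barcodes, 25.4 against 142 CPM, in Cyp11b1-low barcodes, 4.26 against 51.1 CPM, in leukocytes, 74.2 against 169 CPM, and in endothelial barcodes, 6.42 against 112 CPM. Pttg1 (chr11:43420250-43426251, reverse strand), securin, was at 6.56 CPM at 9 weeks and 63.5 CPM at 6 weeks in members, at 3.01 and 62.2 CPM in Cyp2f2-high and at 14.6 and 101 CPM in Cyp11b1-low barcodes. In leukocytes it was at 45.5 and 51.4 CPM and in endothelial barcodes at 14.3 and 115 CPM. Neat1 was thus lower at 9 weeks in each of these 5 groups, cortical or not. Pttg1 was far lower in the cortical and endothelial groups, but its level in leukocytes was only slightly lower. Library and age cannot be told apart.

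C3, the central complement protein, was at 481 CPM (469 to 493) in members at 9 weeks and 1529 CPM (1515 to 1543) at 6 weeks, and A2m, a protease inhibitor, at 54.4 and 207 CPM. Within the Akr1d1 ranges from 1 upward C3 had log2 ratios of -1.08, -1.10 and -0.83. Thrsp, a lipogenesis gene, was at 54.9 CPM at 9 weeks and 155 CPM at 6 weeks, Appl2, an endosomal adaptor, at 86.3 and 203 CPM, and Nrep at 189 and 401 CPM. Cryba4, Fry, Top1mt, Elfn1 and Fmo1 completed the 12. Under the Akr1d1 weighting Appl2, Fry, Nrep, Top1mt and Fmo1 no longer passed 1.5-fold, while C3 stood at -0.98 and A2m at -1.38. Of 5 counted genes of the X-zone list 3 were lower and 0 higher, with a median of -0.65, beside 1.27% of all genes lower. The 3 were Cyp2f2, which the rule used, Srd5a2, which was highest in members among the cortical groups, and Thrsp. The X-zone marker Akr1c18 was too low to be counted, so this count does not measure the X-zone.

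**Figure D5:**
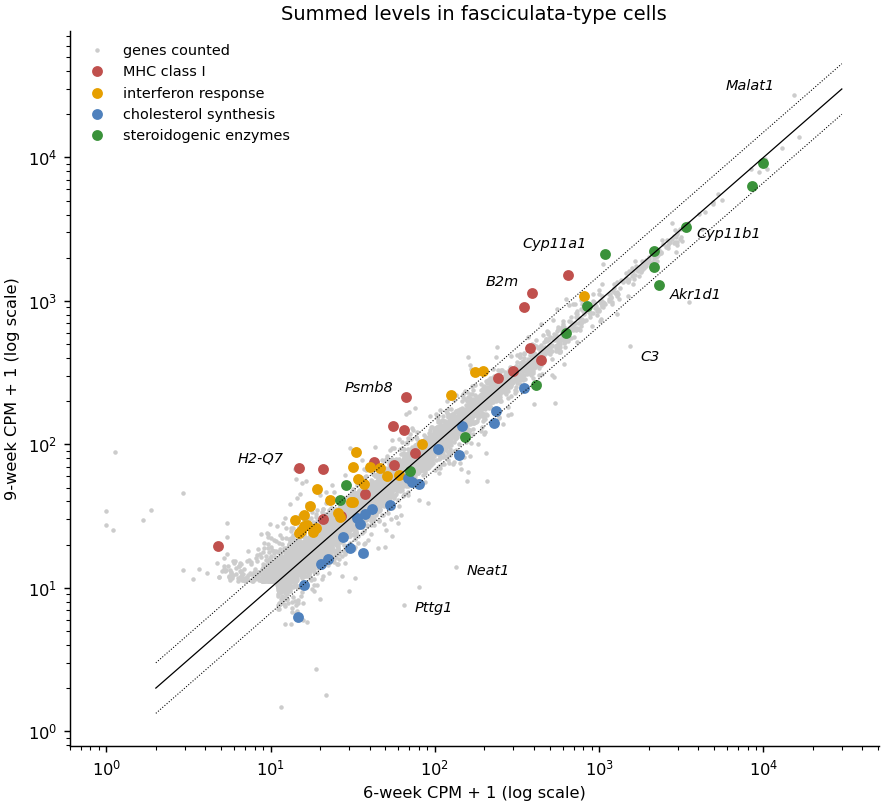
Summed levels in fasciculata-type cells at 9 weeks (vertical) and 6 weeks (horizontal), in CPM with 1 CPM added, on log axes, for 8325 genes counted, with gene lists in colour. The dotted lines mark 1.5-fold. Of 19 MHC class I genes 10 were called higher, and of 21 cholesterol synthesis genes 5 lower.

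Most counted genes of the stress and division lists did not pass 1.5-fold, but neither did most genes as a whole. Among all genes 2.52% were higher and 1.27% lower. Without weighting, the secreted senescence, replication and immediate early lists held larger shares of higher genes than that. The unfolded protein list had 0 of 13 counted genes past it and a median of -0.03. Of 18 counted genes of mitochondrial redox defence, catalase (Cat) was lower, at 154 CPM at 9 weeks and 245 CPM at 6 weeks. Under the Akr1d1 weighting its log2 ratio was -0.34 instead of -0.65, under 1.5-fold. Of 12 immediate early genes Nr4a1 and Dusp1 were higher, and of 2 counted gonad-like genes 0 passed. Under the Akr1d1 weighting 0 immediate early genes were higher, with Dusp1 at -0.18 instead of 0.71. Of 16 counted p53 and senescence genes Cdkn1c was higher and Cdkn2a, at 16.2 and 27.2 CPM, lower, and under the weighting of these only Cdkn2a passed. Of 8 counted genes of the secreted senescence list Igfbp7, Timp1, Timp2 and Kitl were higher, with a median of 0.58. Igfbp7, at 1809 and 1050.2 CPM, was the most abundant of them, and under the Akr1d1 weighting 0 were higher, 1 lower and the median was 0.11. Of 9 counted replication genes Mcm3 and Mcm6 were higher, with a median of 0.24, and no mitotic gene reached 10 CPM. Under the weighting Mcm3 was at 0.27 instead of 0.74 and Mcm6 at 0.48 instead of 0.79, and neither passed 1.5-fold. After thinning, 1.23% of members at 9 weeks (0.564 to 2.32) and 0.690% at 6 weeks (0.368 to 1.18) had at least 2 UMIs of mitotic genes, beside 16.5% and 12.7% of leukocytes. Without thinning the members' shares were 4.04% and 1.86%.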

How the data were processed

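The deposited files hold UMI counts per gene and barcode, 1 matrix for each of the 2 libraries and without normalization by the authors. The tools listed per the submitters' processing notes are Cell Ranger, version 6.0.1, with mm10 as the build, and Seurat, for which no version is listed. Which gene annotation was counted is not given in the sources used. Coordinates are those of GENCODE on mm10, and promoters are from RefSeq on GRCm38.p6.

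Rows that carry 1 symbol were added up. UMIs were summed over the cells of a group and library and scaled to CPM, which were computed here and not by the authors. A gene was counted from 10 CPM in either library and 10 UMIs in total. A call is a 1.5-fold ratio after adding 5 CPM. The members and gene lists were chosen with earlier results of these data known. Named genes were the 12 with the largest ratio each way at 50 CPM, 30 UMIs and UMIs in 10% of members in the library where they are higher, with at least 20% of the level in leukocyte and endothelial barcodes, and the 10 with the largest smaller ratio over both other cortical groups. Leukocytes had at least 2 Ptprc UMIs. Shares compared across depths were thinned to 5000 UMIs, leaving out 36 members at 9 weeks and 49 at 6 weeks. Doublets were kept, and Scrublet served only as an alternative. Trimmed mean scaling came from edgeR 4.0.16, on sums and with no test. The Akr1d1 ranges and the removal of cells rich in haemoglobin or in Cxcl9 and Cxcl10 were chosen after seeing the data. The other alternatives changed the pseudocount, the minimum level, the thresholds of the rule and the weighting of cells. Values of some list members are not reported here, though the list counts and medians include them. Scripts were tested on simulated counts. Python 3.11.15, scipy 1.17.1, scanpy 1.11.5 and R 4.3.3 were used.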

Additional observations from a re-analysis of the deposited data

How the results depend on the processing

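No paired analysis was possible because there is 1 library per age. The shares, counts of genes and the 24 genes named by rule kept their direction under every alternative run. Of the list genes called at least 1.5-fold higher, Nr4a3, Dusp1, Lef1, Ccnd1, Dab2 and Timp1 changed sign under the Akr1d1 weighting. Dab2 then stood at -0.34 instead of 0.70 and Timp1 at -0.28 instead of 0.70. The ACTH, cortical regulator, immediate early, redox and replication lists had no gene past 1.5-fold under this weighting. With a pseudocount of 20 CPM no Wnt target, replication gene or cortical regulator passed, and with Cyp11b1 at 20 per 10000 no Wnt target, glomerulosa, redox or cortical regulator gene. The median log2 ratio of the glomerulosa list was -0.29 under the Akr1d1 weighting against 0.42 without it, and that of the Wnt targets -0.06 and, with Cyp11b1 at 20 per 10000, -0.05, against 0.36. Lists with medians near 0 also changed sign, namely fasciculata, ACTH, cholesterol handling, redox, p53, unfolded protein and cortical regulators. The member share of cortical barcodes was 28.2% at 9 weeks and 35.4% at 6 weeks with Cyp11b1 at 20 per 10000, 44.5% and 47.0% with 5, 33.9% and 36.1% with Cyp2f2 at 0, 40.7% and 46.5% with at most 10% mitochondrial UMIs, and 46.6% and 46.8% with cortical genes at 1%. The ratio of these shares, 9 over 6 weeks, ranged from 0.796 to 0.996. Against 210 genes higher and 106 lower, a pseudocount of 20 CPM gave 78 and 55, and the Akr1d1 weighting, chosen after seeing the data, 69 and 67. Cyp11b1 at 20 per 10000 gave 113 higher. All 24 named genes passed 1.5-fold under every alternative but the Akr1d1 weighting, under which 13 did. MHC class I had a median log2 ratio of 0.63 to 0.84 over the alternatives, and interferon response of 0.40 to 0.71. With 1 library per age, age, library and depth cannot be told apart, and intervals cover counting error only.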

Other observations

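Malat1, a nuclear non-coding RNA, was at 27151 CPM at 9 weeks and 15295 CPM at 6 weeks in members, at 28020 and 16559 CPM in Cyp2f2-high barcodes, at 26486 and 16277 CPM in Cyp11b1-low barcodes, and at 15565 and 11066 CPM in leukocytes. Single cells held most of the UMIs of a few genes. Haemoglobin genes had 2202 UMIs in members at 9 weeks, 2173 of them in 1 cell, and 7 at 6 weeks. The chemokines Cxcl9 and Cxcl10 together had 18 UMIs in members at 9 weeks, and at 6 weeks 467 in 1 cell and 37 in all others.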
